A study of Rattus norvegicus with 352 samples.

Results

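Brain libraries with much Apold1 RNA were compared with brain libraries with little of it. The labels name a single group of naive, untreated outbred rats, the heterogeneous stock used to map traits, with a whole frozen hemisphere of the brain measured. They give no genotype, age or time of sampling. That each library comes from a separate rat is assumed here, since nothing states it. Of the samples named in the labels, 10 were not analysed here. Libraries were chosen by their own Apold1 level: the 25% with the most Apold1, 86 libraries, are called the high set, and the 25% with the least, also 86, the low set. The other 170 libraries of the table lie between the sets. These sets are ranges of 1 measured gene and not groups of the study.

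A level is log2(CPM + 1), with CPM meaning a gene's estimated count after its library was scaled to a total of 1000000. A difference is the mean level of the high set minus that of the low set, so it understates the fold of low genes. Of 38354 genes in the table, 16683 had a mean level of at least 1, and the 16682 besides Apold1 were tested with limma's moderated test. Called means an adjusted p under 0.05, with Benjamini-Hochberg adjustment over all of these genes. Such a p measures association with Apold1 across these libraries, not the effect of a treatment.

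Apold1, also named Verge, encodes an apolipoprotein L domain protein that endothelial cells make as an early response gene in rodents. Early response genes are transcribed within minutes of a stimulus, from factors already present in the cell. Klf2 and Klf4 encode transcription factors that endothelium induces under blood flow, and Ccn1 encodes a secreted matrix protein induced through serum response factor and YAP. Neurons use a partly shared set, with Fos, Arc and Npas4 following synaptic activity, and glucocorticoids induce another that includes Sgk1 and Per1.

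Apold1 (chromosome 4, 169499728 to 169557075, GRCr8) chose the libraries, so its levels are given as a description with no test. In the high set its lowest, median and highest levels were 3.77, 4.19 and 6.40, against 2.06, 2.72 and 2.93 in the low set. The distribution had a long upper end: the median of all libraries was 3.25, and the mean was 3.43 ± 0.75 (SD). At the upper edge the lowest level in the high set was 3.773 and the next library below had 3.772. At the lower edge the highest level in the low set was 2.925 and the next library above had 2.927, so neither edge is a gap. The estimated counts behind these levels ran from 50 to 1534 per library, with a median of 187.9.

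Libraries with the same first 6 characters in their names were unequally shared between the sets. Of the 18 libraries of prefix 00077E, 14 were in the high set and 0 in the low set, and their Apold1 level averaged 4.76 ± 1.10. Prefix 00078A gave 32 libraries to the high set and 9 to the low set, of 62. Prefix 000792, the most frequent, gave 21 to the high set and 49 to the low set, with 75 between. Prefix 000789 gave 12 and 15 of 56, 00079F gave 6 and 6 of 33, and 0007A3 gave 1 and 3 of 13, with the high set first. The 8 libraries of 0007A0 all lay between the sets. Among the 7 libraries of the rare prefixes, 0007D3 gave 1, 0007D5 gave 1 and 0007D6 gave 2 to the low set. The labels do not say whether a prefix marks a batch, so results are also given with sets taken within each prefix of at least 8 libraries.

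**Figure D1:**
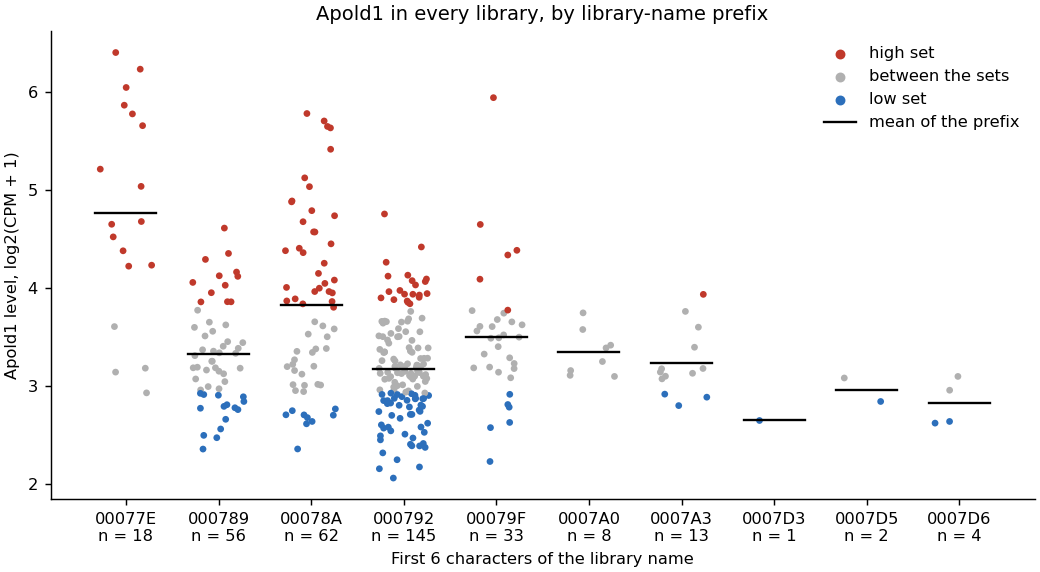
Apold1 level, log2(CPM + 1), of each library (points) by the first 6 characters of the library name. Colour marks the set and a black line the mean of each prefix. The libraries of 00077E average 4.76 and those of 000792 average 3.17.

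Depth and RNA measures overlapped between the sets. Library totals had a median of 21279008 in the high set and 22555198 in the low set, in a series that ran from 5418230 to 42980793. Of 5 measures, log2 total, genes above 0, ribosomal RNA share, Meg3 level and summed haemoglobin level, none differed past the threshold (two-sided permutation tests, lowest adjusted p = 0.0928, for log2 total and genes above 0). Xist RNA exceeded that of the Y-linked gene Ddx3y in 53 of 86 libraries of the high set (61.63%) and 37 of 86 of the low set (43.02%). Sex and the sets were thus not balanced. The labels say that 14 libraries were relabelled after their genotypes did not match, and 2 of these are in the high set and 4 in the low set.

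Promoters of Apold1 and of the 6 genes most like it in level for which a window was given are shown, because early response genes are known to be switched on through their promoters. Likeness, by Pearson's r, is given further on. Each is the stretch from 250 bases before to 50 after the annotated start in RefSeq, on GRCr8. The Apold1 window (chr4:169552349-169552648, plus strand) and the Klf4 window (chr5:75078543-75078842, minus strand) lie at a start inside the annotated gene span. Those of Ccn1 (chr2:237225640-237225939, minus strand), Dusp1 (chr10:17184603-17184902, plus strand), Sik1 (chr20:9958597-9958896, minus strand), Btg2 (chr13:48087641-48087940, minus strand) and Ier2 (chr19:40399123-40399422, plus strand) lie at the start of the annotated gene. Capitals mark TGACG on either strand, the core of the cAMP response element. TGACGTCA is the whole element, which holds the core on both strands.
Apold1: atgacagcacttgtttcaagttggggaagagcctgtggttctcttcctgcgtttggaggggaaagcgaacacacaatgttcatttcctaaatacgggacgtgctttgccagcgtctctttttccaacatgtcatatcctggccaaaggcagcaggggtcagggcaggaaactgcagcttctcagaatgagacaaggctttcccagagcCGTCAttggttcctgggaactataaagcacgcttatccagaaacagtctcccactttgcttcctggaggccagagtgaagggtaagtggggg
Klf4: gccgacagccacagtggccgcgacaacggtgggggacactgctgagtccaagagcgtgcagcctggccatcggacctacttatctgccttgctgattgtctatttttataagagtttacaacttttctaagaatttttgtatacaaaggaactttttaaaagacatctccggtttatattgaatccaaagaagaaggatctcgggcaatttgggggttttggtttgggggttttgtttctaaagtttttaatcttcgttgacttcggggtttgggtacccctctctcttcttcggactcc
Ccn1: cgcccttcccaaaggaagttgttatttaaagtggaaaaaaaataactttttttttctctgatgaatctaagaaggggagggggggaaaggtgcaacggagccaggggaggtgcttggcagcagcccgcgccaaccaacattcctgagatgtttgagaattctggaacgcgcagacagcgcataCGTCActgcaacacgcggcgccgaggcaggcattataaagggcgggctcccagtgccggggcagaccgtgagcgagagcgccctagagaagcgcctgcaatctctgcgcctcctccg
Dusp1: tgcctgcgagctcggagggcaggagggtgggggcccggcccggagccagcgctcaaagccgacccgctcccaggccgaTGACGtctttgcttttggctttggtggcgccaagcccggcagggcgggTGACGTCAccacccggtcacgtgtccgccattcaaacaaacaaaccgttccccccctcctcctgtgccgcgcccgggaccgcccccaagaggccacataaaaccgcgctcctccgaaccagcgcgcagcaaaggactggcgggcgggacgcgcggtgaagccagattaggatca
Sik1: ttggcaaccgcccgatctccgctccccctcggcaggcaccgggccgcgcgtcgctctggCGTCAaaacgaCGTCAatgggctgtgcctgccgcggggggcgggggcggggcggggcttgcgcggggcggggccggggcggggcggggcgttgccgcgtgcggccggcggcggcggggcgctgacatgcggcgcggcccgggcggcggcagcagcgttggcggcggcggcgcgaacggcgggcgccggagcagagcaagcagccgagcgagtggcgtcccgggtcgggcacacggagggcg
Btg2: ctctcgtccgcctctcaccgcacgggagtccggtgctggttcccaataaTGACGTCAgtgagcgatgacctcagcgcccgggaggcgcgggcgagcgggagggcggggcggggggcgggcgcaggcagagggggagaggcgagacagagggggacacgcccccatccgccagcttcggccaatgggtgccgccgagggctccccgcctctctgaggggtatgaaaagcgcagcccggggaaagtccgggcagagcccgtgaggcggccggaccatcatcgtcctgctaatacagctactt
Ier2: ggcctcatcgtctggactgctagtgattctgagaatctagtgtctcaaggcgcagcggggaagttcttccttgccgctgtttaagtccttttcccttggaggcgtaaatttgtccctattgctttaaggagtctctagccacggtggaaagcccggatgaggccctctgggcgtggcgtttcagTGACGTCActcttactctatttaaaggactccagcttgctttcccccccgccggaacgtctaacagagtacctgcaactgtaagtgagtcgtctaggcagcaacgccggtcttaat

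Apold1 and Ccn1 each held 1 core in this window, at positions -42 and -67 from the start, and no whole element. Sik1 held 2 cores, at -191 and -180, and no whole element, and Klf4 held no core. Dusp1, Btg2 and Ier2 each held TGACGTCA, beginning at -124, -201 and -66. Each of Apold1 and Ccn1 also held TATAAA, at -22 and -34, and Klf4 held it on the other strand, at -146 and -78. Ccn1 alone of these 7 held GGAATG, the core letters bound by TEAD factors, at -113 on the other strand. None of the 7 held a CArG box, the letters bound by serum response factor, or TGANTCA, those bound by AP-1. Across the promoters of 13541 genes that reached the level minimum, TGACG on either strand stood in 29.1%, TGACGTCA in 2.85%, TATAAA in 7.81% and GGAATG in 11.8%. Of the 53 promoters given for genes higher by at least 0.25, 24 held TGACG, 9 TGACGTCA, 12 TATAAA and 8 GGAATG. A CArG box stood in 1.29% of the 13541 and in 3 of the 53, and TGANTCA in 4.97% and in 4. A match of letters is a description of the window and was not tested as a site.

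Klf2, Klf4 and Ccn1 were higher in the high set than in the low set. They were named with Apold1 when the comparison was proposed, with results of these libraries known, so their calls are no independent support. Klf2 (chromosome 16, 17555136 to 17557768) had a lowest, median and highest level of 3.82, 4.68 and 6.03 in the high set and 2.68, 3.64 and 4.19 in the low set. The groups overlapped little: 76 of 86 libraries of the high set lay above the highest of the low set. The difference was 1.06 ± 0.06 (SE, limma, adjusted p = 8.64e-41), and 26.3 CPM stood against 11.7 CPM on average.

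Klf4 (chromosome 5, 75074107 to 75079182) had levels of 3.22, 3.86 and 5.19 in the high set, lowest, median and highest, against 2.67, 3.22 and 3.92 in the low set. The ranges overlapped more than those of Klf2, with 34 of 86 libraries of the high set above the whole low set, although 85 lay above its median. The difference was 0.74 ± 0.05 (SE, adjusted p = 9.93e-31, limma).

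Ccn1 (chromosome 2, 237222730 to 237225689) had levels of 0.95, 2.54 and 4.78 in the high set and 0.36, 0.99 and 2.28 in the low set. It was the most spread of the 3 in the high set, where libraries near the low set's median and libraries far above its range were both found, and 53 of 86 exceeded the highest of the low set. The difference was 1.54 ± 0.11 (SE, adjusted p = 4.28e-26, limma), with a mean of 6.54 CPM against 1.13 CPM, a ratio of 5.80. Its estimated counts were few, from 5 to 480 per library with a median of 32. Without the libraries of prefix 00077E, a repeat chosen after seeing the data, the differences were 0.99 for Klf2, 0.68 for Klf4 and 1.36 for Ccn1, and all 3 remained called.

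**Figure D2:**
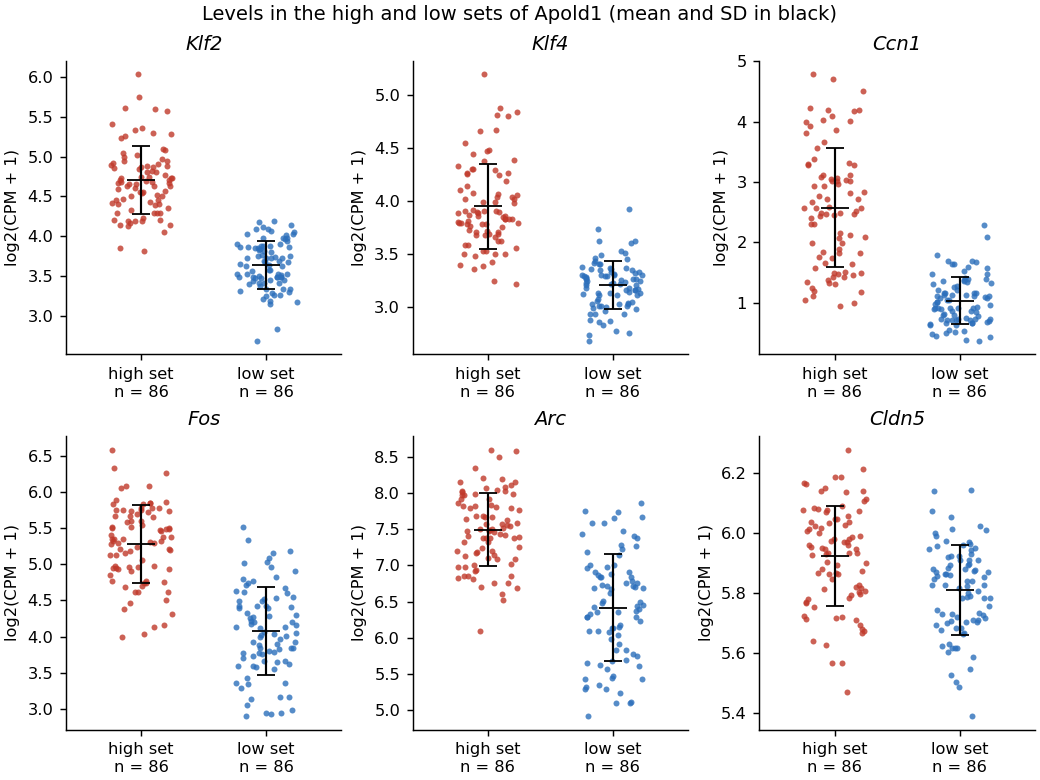
Levels, log2(CPM + 1), of 6 genes in the high set (left, red) and the low set (right, blue) of Apold1, 86 libraries each (points), with mean and SD in black. Klf2, Klf4, Ccn1, Fos and Arc sit higher in the high set by 0.74 to 1.54, while the endothelial junction gene Cldn5 differs by 0.11.

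Over all genes, 1444 were higher (8.66%) and 857 lower (5.14%) in the high set. Most of these differences were small: 68 genes (0.408%) were higher and 3 (0.018%) lower by at least 0.25, and the median difference of all genes was 0.01. The share of higher genes among those called depends on the scaling, being 62.8% here and 42.6% with median ratio scaling, which gave 806 higher and 1087 lower genes. Of the 68 genes, 67 were also called by at least 0.25 with that scaling. With sets taken within each prefix, 604 genes were higher (3.62%) and 474 lower (2.84%), and 54 of the 68 remained at that size. Without prefix 00077E, 813 were higher and 603 lower, with 64 of the 68 remaining. Without the relabelled libraries there were 1270 and 792, and with Xist and Ddx3y levels as covariates 1238 and 737.

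Early response genes known from vessel wall and stromal cells were mostly higher. Many of this list are also induced in neurons and glia, so it does not mark a cell type. Of its 51 genes, 43 besides Apold1 reached the level minimum, 30 of these were higher and 1 lower, and the median difference was 0.19, against 0.01 over all genes. The background shares are the 8.66% and 5.14% given above. Sele, Ccl2, Cxcl1, Cxcl2, Il6 and Plaur were among those that did not reach the minimum. With sets taken within each prefix, 27 of the 43 were higher, where 3.62% of all genes were.

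Several genes of the list encode inhibitors of signalling, and of those described here Dusp1 differed most. Dusp1, the phosphatase that switches off MAP kinases, had levels of 5.56, 6.34 and 7.22 in the high set, lowest, median and highest, against 4.59, 5.37 and 6.13 in the low set. Nearly all libraries of the high set were high, with 67 of 86 above the whole low set. The difference was 1.06 ± 0.05 (SE, adjusted p = 1.82e-41, limma). Nfkbia, the inhibitor of NF-kB, differed by 0.62 ± 0.04, Zfp36, which speeds decay of cytokine mRNAs, by 0.49 ± 0.05, and Dusp6, the phosphatase of ERK, by 0.38 ± 0.04. Errfi1, an inhibitor of the EGF receptor, differed by 0.28 ± 0.03 and Nfkbiz by 0.22 ± 0.03. All of these were called, and for Zfp36 44 of 86 libraries of the high set lay above the low set.

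Transcription factors and growth arrest genes of the list rose too. The antiproliferative gene Btg2 had levels of 3.80, 4.55 and 5.88 in the high set and 2.87, 3.59 and 4.52 in the low set, lowest, median and highest. About as many libraries of the high set lay above the low set's range (44) as inside it. Its difference was 1.02 ± 0.07 (SE, adjusted p = 1.56e-31, limma). The nuclear gene Ier2 differed by 0.72 ± 0.04, the stress factor gene Atf3 by 0.55 ± 0.06, the pseudokinase gene Trib1 by 0.50 ± 0.05 and Gadd45g, a growth arrest gene, by 0.44 ± 0.03. Cebpd and Cebpb, factors of inflammatory responses, differed by 0.39 ± 0.04 and 0.28 ± 0.03. Ccn2, the nearest relative of Ccn1 in this list, differed by 0.26 ± 0.03, with 6 libraries of the high set above the low set's highest, against 53 for Ccn1.

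Adhesion molecules of inflamed endothelium had differences near those of all genes. Vcam1 differed by -0.02 ± 0.02 (adjusted p = 0.609, limma) and Icam1 by 0.01 ± 0.03 (adjusted p = 0.932). Among secreted proteases, Adamts1 was higher by 0.19 ± 0.04 and Adamts4 lower by 0.09 ± 0.03 (difference -0.09, adjusted p = 0.0220), the lower call of the list. Within prefixes neither protease passed, with differences of 0.11 (adjusted p = 0.0814) and -0.08 (adjusted p = 0.0997).

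**Figure D3:**
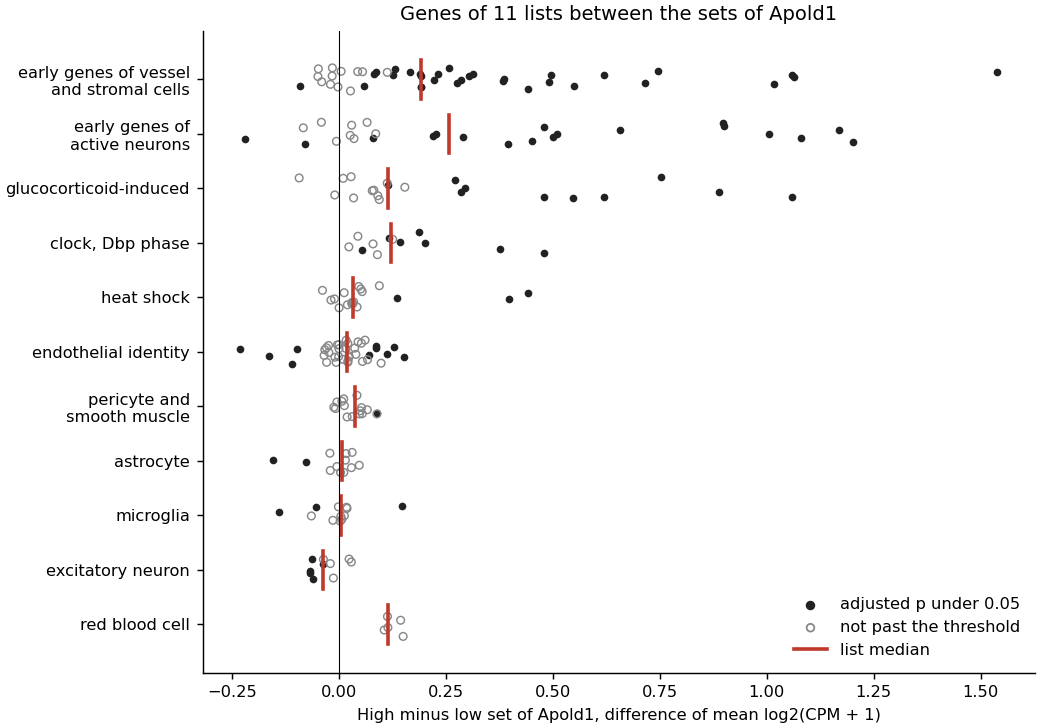
Difference between the high and the low set of Apold1, in mean log2(CPM + 1), for each gene tested (points) of 11 lists (down the page). Filled points have an adjusted p under 0.05 and a red line marks the list median. The medians of the first 2 lists are 0.19 and 0.26, and that of endothelial identity is 0.02.

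Activity genes of neurons moved with Apold1 by similar amounts. Of 26 genes tested in this neuronal list, 16 were higher and 2 lower, and the median difference was 0.26. Over all genes the shares were 8.66% and 5.14%. Early response genes are partly shared between cell types, so this list does not mark a cell type either. Fos, the classic marker of recently active cells, had levels of 4.0, 5.33 and 6.58 in the high set and 2.90, 4.06 and 5.51 in the low set, lowest, median and highest. The ranges overlapped, with 29 of 86 libraries of the high set above the low set, but 84 lay above its median. The difference was 1.2 ± 0.09 (SE, adjusted p = 4.79e-27, limma).

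Arc, which encodes a protein of active synapses, had levels of 6.09, 7.50 and 8.60 in the high set and 4.92, 6.44 and 7.87 in the low set. Low Arc was rare in the high set, while high Arc occurred in the low set, and 21 of 86 libraries of the high set lay above its range. The difference was 1.08 ± 0.10 (SE, adjusted p = 8.93e-20, limma). The zinc finger factor genes Egr2 and Egr1 differed by 1.17 ± 0.10 and 0.66 ± 0.05, the nuclear receptor gene Nr4a1 by 1.01 ± 0.07, Junb by 0.90 ± 0.06 and the neuronal factor gene Npas4 by 0.90 ± 0.09, all called. Sik1, a kinase gene induced by cAMP that is in neither early response list, differed by 0.83 ± 0.05. The lower genes of the list were Inhba, the activin subunit gene, at -0.22 ± 0.04 and Homer1, a synaptic scaffold gene, at -0.08 ± 0.02. The label of the comparison speaks of a vascular response. Since genes of the neuronal list moved with Apold1 too, the libraries are named here only by their set.

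Some glucocorticoid-induced genes were higher and others were not. Of 21 genes tested, 10 were higher, where 8.66% of all genes were, with a median of 0.12. This list shares Dusp1, Errfi1 and Nfkbia with the vessel list. Sgk1, a kinase gene that glucocorticoids induce, had levels of 5.85, 7.11 and 7.73 in the high set and 5.24, 6.10 and 7.38 in the low set. The whole distribution lay higher in the high set, with 84 of 86 libraries above the low set's median, but 16 above its range. The difference was 0.89 ± 0.07 (SE, adjusted p = 2.70e-25, limma). Pdk4, which turns cells from glucose oxidation, differed by 0.75 ± 0.08. By contrast Fkbp5, the receptor's cochaperone gene, differed by -0.01 ± 0.04 (adjusted p = 0.922, limma) and the transcription factor gene Zbtb16 by -0.09 ± 0.06 (adjusted p = 0.287), both named after their values were seen.

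Genes that mark endothelial cells as such differed by small amounts, from -0.23 to 0.15. Of 38 endothelial identity genes tested, 6 were higher and 4 lower, where the shares of all genes were 8.66% and 5.14%, and the median difference was 0.02, against 0.01 over all genes. Their summed level had a lowest, median and highest value of 10.40, 10.65 and 10.76 in the high set and 10.47, 10.60 and 10.74 in the low set. The endothelial markers were well detected: the lowest level in either set was 5.39 for the junction gene Cldn5, 3.89 for Pecam1 and 3.56 for Cdh5. Pecam1 differed by -0.02 ± 0.02 (adjusted p = 0.564, limma), Cdh5 by 0.02 ± 0.03 (adjusted p = 0.661) and the VEGF receptor gene Flt1 by 0.02 ± 0.02 (adjusted p = 0.532). In bulk tissue, fewer cells of a type and less RNA per cell cannot be told apart.

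The 6 higher endothelial genes differed by 0.07 to 0.15. Slc2a1, the glucose transporter of the blood-brain barrier, differed by 0.15 ± 0.03 (adjusted p = 7.63e-06, limma), the sialomucin gene Emcn by 0.13 ± 0.04, Cldn5 by 0.11 ± 0.02, the efflux pump gene Abcb1a by 0.09 ± 0.02, Slco1a4 by 0.09 and Itm2a by 0.07. The lower ones were the endothelial transcription factor genes Sox18, at -0.23 ± 0.03 (adjusted p = 5.49e-08), and Sox7, at -0.16 ± 0.04, with the sialomucin gene Podxl at -0.11 ± 0.02 and the guidance receptor gene Robo4 at -0.10 ± 0.03. Sox18 was the endothelial gene of largest difference: its median was 2.83 in the high set and 3.01 in the low set, and the groups overlapped widely. Within prefixes 3 of the 38 were higher and 3 lower, where the shares of all genes were 3.62% and 2.84%. With Sgk1 as a covariate 8 of the 38 were higher and 1 lower, with a median of 0.04. The shares of all genes were then 1.89% and 1.02%. In that fit the difference of Slc2a1 was -0.06 (adjusted p = 0.358, limma). Emcn did not pass there (0.06, adjusted p = 0.347) and Robo4 did not either (-0.09, adjusted p = 0.110). Of 16 pericyte and smooth muscle genes tested, 1 was higher, where 8.66% of all genes were, with a median of 0.04. The contractile gene Acta2 differed by 0.09 ± 0.05 (adjusted p = 0.219) and the pericyte gene Pdgfrb by -0.00 ± 0.03 (adjusted p = 0.949).

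By the rule for named genes the 10 lower genes of largest difference ran from -0.17 to -0.25, and the 16 higher ones from 0.66 to 1.2. The lower ones were Hes5, a Notch target of radial glia and astrocytes, at -0.25 ± 0.04 (adjusted p = 7.08e-08, limma), then Sox18, Inhba, the zinc finger genes Zfp51 and Zfp867, Klhdc7a, the Wnt receptor gene Fzd5, the mu opioid receptor gene Oprm1, Nwd1 and the matrix protease gene Mmp14. Hes5 had levels of 2.77, 3.34 and 4.08 in the high set and 2.86, 3.62 and 4.14 in the low set. The ranges overlapped almost wholly, and 14 of 86 libraries of the high set lay above the low set's median. Within prefixes Zfp51, Klhdc7a and Nwd1 did not pass, with adjusted p of 0.0689, 0.131 and 0.0802. With the level of Sgk1 as a covariate, the differences were -0.01 for Hes5 (adjusted p = 0.943, limma), -0.13 for Sox18 (adjusted p = 0.118), -0.04 for Fzd5 (adjusted p = 0.715) and 0.05 for Mmp14 (adjusted p = 0.822), and none of these 4 passed.

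Tph1, the enzyme of serotonin synthesis in the pineal gland, was among the 16 higher genes of largest difference but rested on a wide spread. Its lowest, median and highest levels were 0.15, 2.84 and 6.23 in the high set and 0.19, 1.04 and 5.95 in the low set. Both sets covered nearly the full range of the gene. The difference was 1.06 ± 0.29 (SE, adjusted p = 0.00529, limma), and it was 0.53 ± 0.29 with sets taken within prefixes (adjusted p = 0.279). The part of prefix in the difference was not tested further.

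The 170 libraries between the sets took no part in the comparison and gave a second reading. There, 22 genes had a level that rose with Apold1 at an adjusted p under 0.05 (0.132% of genes tested) and 3 had one that fell (0.018%). Of these 25 genes, 22 were also called in the same direction between the sets. Of the 68 genes higher by at least 0.25 between the sets, 64 had a positive slope in these libraries, against 45.5% of all genes, and 21 were called. Slopes are the change of a gene's level per unit of Apold1 level. They were 0.88 ± 0.16 for Ccn1, 0.66 ± 0.08 for Klf2 (limma, adjusted p = 5.79e-10), 0.68 ± 0.08 for Dusp1 and 0.35 ± 0.07 for Klf4. Klf2, Klf4 and Ccn1 were named with earlier results known, so their slopes here and in the later fit with Arc are no independent support. Genes of the neuronal list were also called, Fos at 0.85 ± 0.16, Npas4 at 0.82 ± 0.19 and Junb at 0.60 ± 0.11. Arc (0.61 ± 0.17, adjusted p = 0.175) and Sgk1 (0.54 ± 0.14, adjusted p = 0.115) did not pass there. Among endothelial identity genes, Cldn5 had a slope of 0.05 ± 0.06 (adjusted p = 0.806) and Sox18 -0.06 ± 0.08 (adjusted p = 0.853).

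The 10 genes whose level was most like that of Apold1 over all libraries were, by Pearson's r, Klf2 (0.88), Klf4 (0.83), Dusp1 (0.83), Ccn1 (0.81), Sik1 (0.80), Btg2 (0.79), Ier2 (0.76), Atf3 (0.72), Zfp36 (0.70) and Junb (0.68). These values describe libraries that differ in depth and prefix and may differ in handling. Apart from the scaling to a common total, none of these was held fixed. By rank the order changed at the lower levels: Spearman's rho was 0.84 for Klf2 and 0.82 for Dusp1, but 0.66 for Ccn1, 0.54 for Zfp36 and 0.50 for Atf3. Leaving out the 2 libraries farthest from the median of Apold1 moved r by at most 0.03, to 0.87 for Klf2 and 0.69 for Atf3. Within the 7 prefixes of at least 8 libraries, r ran from 0.64 to 0.91 for Klf2 and from 0.49 to 0.92 for Ccn1. For Zfp36 it ran from -0.36 to 0.84. Of the 86 libraries of the high set, 67 were also in the top 25% of Klf2, 68 in that of Klf4, 60 in that of Ccn1, 55 in that of Fos, 46 in that of Arc and 42 in that of Sgk1.

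**Figure D4:**
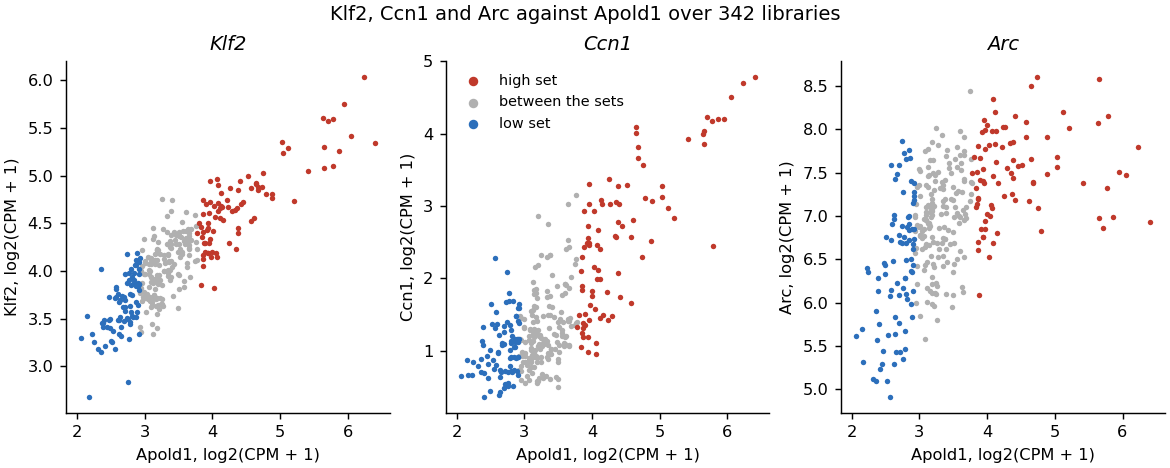
Levels, log2(CPM + 1), of Klf2, Ccn1 and Arc against that of Apold1 in all libraries (points), coloured by set of Apold1. Klf2 follows Apold1 over the whole range (r = 0.88), Ccn1 (r = 0.81) also climbs with it, and Arc (r = 0.55) is spread at every Apold1 level.

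Apold1 and Arc were also fitted together, since both early response lists moved between the sets. In this fit over all libraries each gene has a slope on Apold1 and a slope on Arc, both as the change of level per SD, and the difference of the slopes was tested. The slope on Apold1 exceeded that on Arc for 2553 genes (15.3% of 16681) and the reverse held for 1447 (8.67%). With median ratio scaling these counts were 1752 and 1915. Ccn1 had the slopes 0.68 on Apold1 and 0.06 on Arc (adjusted p of the difference 5.45e-19, limma), Zfp36 0.27 and -0.05, Atf3 0.27 and 0.02, Klf2 0.36 and 0.15 (7.91e-14), and Klf4 0.27 and 0.10 (6.86e-11). Sgk1 also followed Apold1 more, with 0.29 and 0.04 (0.000110).

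Most genes of the neuronal list had the larger slope on Arc. Npas4 had the slopes 0.01 on Apold1 and 0.55 on Arc (adjusted p of the difference 1.74e-24, limma), Fos 0.16 and 0.52, Nr4a1 0.11 and 0.48, Egr2 0.12 and 0.58, and Junb 0.14 and 0.37. Over all genes 15.3% followed Apold1 more and 8.67% followed Arc more in this limma fit. In the neuronal list 22 of 25 genes followed Arc more and 0 followed Apold1 more. In the vessel list 11 of 43 followed Apold1 more and 11 followed Arc more. Those on the Arc side included Trib1 (0.01 and 0.29), Dusp6 (0.06 and 0.19) and Csrnp1 (0.05 and 0.13). Dusp1 had slopes of 0.25 on Apold1 and 0.30 on Arc (adjusted p of the difference 0.00495), and Ier2 had 0.19 on each (0.906).

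Of the 38 endothelial identity genes tested, 16 had the larger slope on Apold1 and 3 on Arc, where the shares of all genes were 15.3% and 8.67%. Of 16 pericyte and smooth muscle genes, 12 had the larger slope on Apold1. Their slopes were small: Cldn5 had 0.06 on Apold1 and -0.02 on Arc, Slc2a1 0.07 and -0.02, Acta2 0.09 and -0.07, and the pericyte gene Rgs5 0.06 and -0.06.

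**Figure D5:**
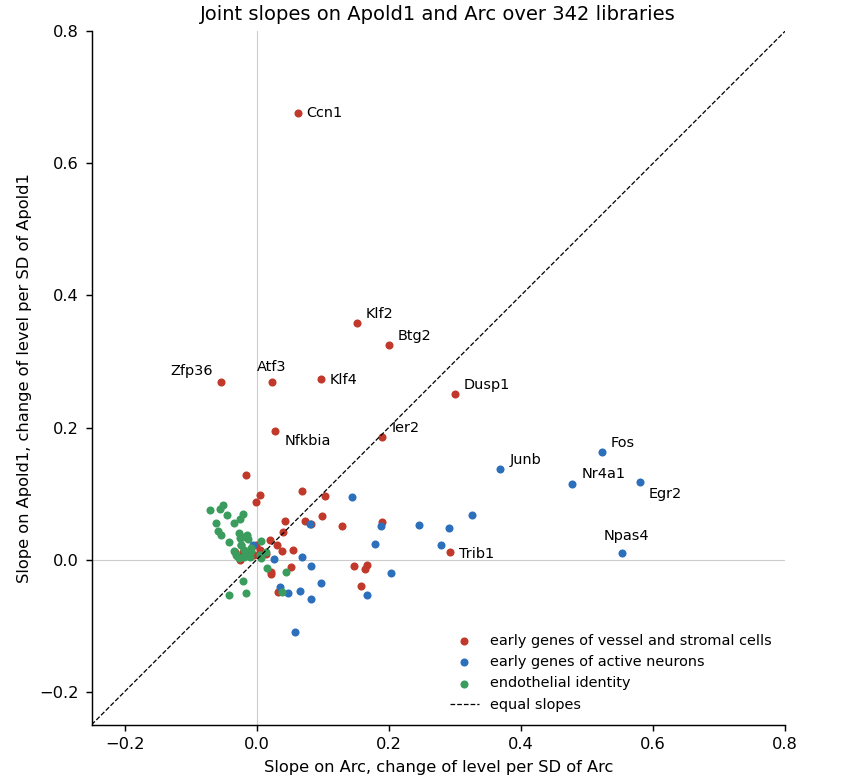
Slope on Arc (x) and slope on Apold1 (y), both as change of level per SD, from a joint fit over all libraries, for genes (points) of 3 lists. Above the dashed line the slope on Apold1 is larger: Ccn1 (0.68 on Apold1, 0.06 on Arc) lies far above it and Npas4 (0.01 on Apold1, 0.55 on Arc) far below.

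With Arc as a covariate in the comparison of the sets, 1228 genes were higher (7.36%) and 656 lower (3.93%). Of the 43 vessel genes, 19 were then higher and 2 lower, and of the 25 neuronal genes besides Arc 7 and 7. Of the 38 endothelial identity genes 8 were higher and 2 lower, and of the 16 pericyte and smooth muscle genes 5 and 0. The difference of Ccn1 was 1.32 and that of Klf2 0.76, both called. Fos kept a called difference of 0.36, while Npas4 (0.07, adjusted p = 0.57, limma) and Trib1 (0.03, adjusted p = 0.61) did not pass. With Sgk1 as a covariate 1.89% of genes were higher and 1.02% lower. Of the 43 vessel genes 19 were then higher and 2 lower, of the 26 neuronal genes 12 and 2, and of the 20 glucocorticoid-induced genes besides Sgk1 3 and 7, with a median difference of -0.11 for this last list. Klf2 differed by 0.85, Ccn1 by 1.59 and Fos by 1.01, all called. Ccn2 (0.11, adjusted p = 0.197, limma) and Pdk4 (-0.11, adjusted p = 0.262) did not pass.

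In the 4 prefixes with at least 3 libraries in both sets, Klf2, Klf4, Ccn1, Fos and Arc were higher in the high set in each prefix. Klf2 differed by 0.86 to 1.24 across these prefixes, Klf4 by 0.53 to 0.98, Ccn1 by 0.84 to 1.73, Fos by 0.99 to 1.28 and Arc by 0.93 to 1.11. Tph1 differed by -0.04 in prefix 00078A and by 0.12 to 1.56 in the other 3. A test of whether the difference itself depended on the prefix called 0 of 16682 genes (limma F test, lowest adjusted p = 0.0911, with 1764 genes at an unadjusted p under 0.05). These 1764 exceed what that threshold gives by chance on average, so 0 calls does not show that no difference depended on prefix. Prefix 00077E, with 0 libraries in the low set, did not enter. Sets of 5 libraries each taken within it differed by 1.45 for Klf2, 1.31 for Klf4, 3.18 for Ccn1, 0.74 for Fos and 0.48 for Arc. With sets taken within prefixes, Klf2 differed by 0.94 ± 0.05, Klf4 by 0.65 ± 0.04, Ccn1 by 1.26 ± 0.10 and Fos by 1.04 ± 0.09, all called.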

How the data were processed

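RNA-seq reads of polyA RNA were turned into estimated counts with kallisto by the authors (per the submitters' processing notes, which give no version here). The deposited log2 values are those of estimated counts plus 1, and were turned back. They are not scaled for depth, and 63.2% of values between 0.5 and 5 are whole within 0.002. Each library was scaled to a total of 1000000. Since counts are deposited only as logarithms, limma 3.58.1 (R 4.3.3, mean-variance trend) was used, after a test on simulated data. A gene used as a covariate was left out of that fit. Apold1 chose the libraries and was not tested. Genes matched RefSeq (GRCr8) by symbol in 38278 of 38354 cases, and 53 of the 68 genes higher by at least 0.25 had a promoter. The genes, lists and sets were chosen with earlier results of these data known.

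Named genes were Apold1, Klf2, Klf4 and Ccn1; the 16 higher and 10 lower called genes of largest difference with a mean level of 2 or more and a symbol other than a bare locus identifier; members of the vessel, endothelial and mural lists; up to 4 members of other lists by absolute difference; and the 10 genes of largest r. Others (Homer1, Fkbp5 and Zbtb16) were chosen after their values were seen. Alternatives covered the pseudocount (0.1), scaling, level minimum, prefix, covariates, sets of 10% or 50%, and libraries left out; leaving out prefix 00077E and adding Xist with Ddx3y were chosen after seeing the data.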

Additional observations from a re-analysis of the deposited data

Results flagged for a closer look

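Of 12 groups of 4 to 10 libraries, each the level of 1 gene in 1 prefix and set, 1 held a library far from the others, and chance alone gives this in about 1 of 20 groups. Among the 9 libraries of prefix 00078A in the low set, the lowest Apold1 level was 2.355 and the next 2.612. Apold1 chose the sets, so its spread within a set is shaped by the rule and that rate need not hold for it.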

How the results depend on the processing

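The 62 named genes that were called were followed through the alternatives, giving 1032 values: 920 kept direction and call, 10 changed sign and the others kept direction without the call. With Sgk1 as a covariate the differences of Pdk4 (-0.11), Errfi1 (-0.092), Slc2a1 (-0.059), Rhob (-0.020), Adamts4 (0.027) and Mmp14 (0.045) changed sign, as did with Arc those of Ier5 (-0.13), Ptgs2 (-0.071), Gadd45b (-0.043) and Klf10 (-0.037); the cause was not tested. Against 8.66% of genes tested higher and 5.14% lower, there were 1.97% and 1.37% with prefix as a term, 3.62% and 2.84% with sets within prefixes, 1.89% and 1.02% with Sgk1, 3.92% and 2.87% with sets of 50%, and 4.16% and 2.54% of the larger number of genes tested with no level minimum. Higher genes were 4.83% with median ratio scaling and 4.87% without prefix 00077E. The 0.408% higher by at least 0.25 became 0.264% with Arc, 0.240% with Sgk1, 0.767% with sets of 10%, 0.228% with sets of 50% and 0.256% with no level minimum. The 3 genes lower by at least 0.25 became 13 with a pseudocount of 0.1, 5 with prefix as a term, 8 with ribosomal RNA share and Meg3, 10 with Arc, 10 with Sgk1 and 24 with sets of 10%. They became 1 with a level minimum of 3, sets within prefixes, the library total or no relabelled libraries, and 0 with sets of 50%, where limma called 479 lower genes of any size and 3414 genes of either direction had an unadjusted p under 0.05. The 3 falling slopes in the middle libraries became 10 with prefix, 6 with median ratio scaling, 25 with Arc and 1 without prefix 00077E. With a pseudocount of 0.1 the differences of low genes grew, to 2.13 for Ccn1, 0.82 for Atf3 and 0.48 for Maff (0.30 with 1). No paired analysis was possible because the samples form a single group.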

Other observations

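Beyond vessels and neurons, a few stress and interferon genes and most clock genes of the Dbp phase were higher in the high set. Over all genes 8.66% were higher and 5.14% lower. Of 18 heat shock genes 3 were higher: Hspa1b by 0.44 ± 0.10 (adjusted p = 0.000540, limma), Hspa1a by 0.40 ± 0.09 and the cochaperone gene Dnajb1 by 0.14 ± 0.03. The first 2 are near-identical copies, so the division of reads between them is uncertain. In the joint fit Hspa1b followed Arc (0.43) and not Apold1 (-0.05). Of 12 clock genes of the Dbp phase 7 were higher, Per1 by 0.48 ± 0.04, Ciart by 0.38 ± 0.06, Bhlhe40 by 0.20 ± 0.02 and Dbp by 0.19 ± 0.05. All 12 had a positive difference, with a median of 0.12. Within prefixes 5 of the 12 were higher, where 3.62% of all genes were. Of 7 genes of the opposite phase Npas2 and Clock were lower, and Nfil3 was higher by 0.27 ± 0.04. Of 17 interferon genes tested 3 were higher, Ifit3 by 0.48 ± 0.06, Ifit2 by 0.15 ± 0.03 and Irf9 by 0.10 ± 0.02. The hypoxia-induced genes Ddit4 (0.55 ± 0.04) and Adm (0.11 ± 0.03) were among 4 of 19 that were higher. Counts of 3 among 17 or 18 and of 4 among 19 lie above the 8.66% of all genes, but they rest on few genes and were not tested.

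Markers of other cells differed by small amounts, where 8.66% of all genes were higher and 5.14% lower. Of 10 excitatory neuron genes 5 were lower, a larger share than over all genes, with a list median of -0.04. Among them were Tbr1 (-0.07), Rasgrf2 (-0.06) and Camk2a (-0.06). Of 10 striatal genes 1 was called, the phosphodiesterase gene Pde10a, which was lower by 0.16 ± 0.02 (difference -0.16, adjusted p = 6.77e-10, limma), with a list median of -0.01. Of 12 microglial genes Tmem119 was higher (0.15 ± 0.04), and Cx3cr1 (-0.14 ± 0.03) and Csf1r were lower. Of 12 astrocyte genes Sox9 (-0.15 ± 0.04) and Slc1a2 (-0.08 ± 0.02) were lower. Of 9 oligodendrocyte precursor genes, Olig2 (0.17 ± 0.03) and Neu4 (0.07 ± 0.02) were higher and Sox10 (-0.06 ± 0.02) and Bcan (-0.04 ± 0.01) lower, with a list median of -0.01. Of 20 ribosomal protein genes 13 were higher, a larger share than over all genes, with a median of 0.04. With median ratio scaling 6 were higher, where 4.83% of all genes were. Within prefixes 6 were higher (3.62% of all genes). With prefix as a term 1 was higher (1.97% of all genes), and with Sgk1 as a covariate 0 were (1.89%).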
